A study of Mus musculus with 21 samples.

Results

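The Cyp2c genes encode a family of cytochrome P450 enzymes, and 9 of them (Cyp2c29, Cyp2c37, Cyp2c38, Cyp2c39, Cyp2c40, Cyp2c44, Cyp2c50, Cyp2c54 and Cyp2c55) were followed across 21 mouse livers. The family was chosen by its differences between knockout and control livers, so those differences are described here and not tested. Of the 9 genes, 8 were found by their symbol in the platform annotation, and Cyp2c44 was found under its RefSeq synonym Cyp2c23. They are 9 of 16 Cyp2c genes measured and of 25428 rows in the table. The study deleted the transcription factor gene Gata4 from the sinusoidal endothelium of the liver and profiled total RNA of whole liver lysate, 1 Affymetrix array per animal. In the 10 knockout livers a floxed Gata4 allele (Gata4tm1.1Sad) met the Cre transgene Clec4g-icre, which is active in sinusoidal endothelial cells. The 11 control livers came from siblings, and the sources used here do not say whether they carried the Cre transgene. All mice received a standard diet; the labels give no age. The numbers in the sample descriptions form 2 consecutive stretches, called runs, run 1 comprising 5 controls and 4 knockouts and run 2 comprising 6 of each.

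CYP2C enzymes are haem-containing monooxygenases of the endoplasmic reticulum that receive electrons from NADPH through the reductase POR. They hydroxylate drugs and steroids and turn arachidonic and linoleic acid into epoxides and hydroxy acids that act as lipid signals. In the liver they are made mainly by hepatocytes, where the nuclear receptors HNF4A, CAR (Nr1i3) and PXR (Nr1i2) and the sex-dependent rhythm of growth hormone control many of the genes.

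In whole liver RNA, fewer cells of a type and less RNA per cell cannot be told apart. All livers expressed Xist (log2 values of 10.45 to 10.97) and had values of 2.98 or lower for the Y-linked genes Eif2s3y, Kdm5d and Uty, which is the pattern of female tissue; the labels give no sex. Gata4 itself was 0.19 ± 0.10 (SE) lower in knockout livers on the log2 scale and did not pass the test (adjusted p = 0.26, limma), in tissue where other cells can express it. Across all rows, 4.05% were lower and 3.28% higher in knockout livers at an adjusted p under 0.05. Values are log2 and were normalised to the same distribution on every array, with quartiles of 2.98 and 6.12. The number of arrays limits the precision, and the median SE of a genotype difference was 0.078.

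The sequences just upstream of 4 members show how alike these genes are where transcription begins. Cyp2c50 and Cyp2c37 had the largest genotype differences of the family, and Cyp2c29 and Cyp2c39 are members with small ones. Each stretch is the 130 bases before a RefSeq transcript start in assembly GRCm38.p6, on the plus strand, at chr19:40089549-40089678 for Cyp2c50, chr19:39992294-39992423 for Cyp2c37, chr19:39286955-39287084 for Cyp2c29 and chr19:39510692-39510821 for 1 of the 2 starts listed for Cyp2c39. Capitals mark CAAAGTCNA, a form of the element bound by HNF4A.
Cyp2c50: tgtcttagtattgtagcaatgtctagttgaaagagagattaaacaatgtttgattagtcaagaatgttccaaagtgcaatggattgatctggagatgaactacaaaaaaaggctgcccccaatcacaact
Cyp2c37: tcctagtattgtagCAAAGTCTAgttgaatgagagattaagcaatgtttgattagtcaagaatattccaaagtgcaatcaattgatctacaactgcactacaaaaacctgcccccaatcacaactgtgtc
Cyp2c29: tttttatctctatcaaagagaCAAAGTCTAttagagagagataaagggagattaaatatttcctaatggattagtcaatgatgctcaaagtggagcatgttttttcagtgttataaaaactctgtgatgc
Cyp2c39: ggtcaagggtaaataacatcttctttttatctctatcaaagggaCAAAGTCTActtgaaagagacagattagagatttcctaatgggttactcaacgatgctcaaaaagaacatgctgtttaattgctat

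Upstream windows of 250 bases were listed for 7 of the 9 members; Cyp2c54 and Cyp2c44 had none. CAAAGTCNA, searched on both strands, was present upstream of 4 members (Cyp2c29, Cyp2c37, Cyp2c39 and Cyp2c40) and of 9 of the 13 Cyp2c genes with a window. It was found in 0.898% of all 32851 windows, and the Cyp2c windows belong to related genes and are not independent. In Cyp2c37 it began 116 bases before the start. Counted from 1 at the 5′ end of the element in Cyp2c37, the aligned bases in Cyp2c50 carried the substitution A4T, and those in Cyp2c38 carried C7T. Cyp2c55 carried A3G and T8C there. The element was whole in Cyp2c37, which had a large genotype difference, as well as in Cyp2c29 and Cyp2c39, which had small ones, and altered in Cyp2c50. Its relation to the genotype differences was not tested. AGGTCA, the core of nuclear receptor elements, was found upstream of Cyp2c29 and Cyp2c39 and in 14% of all windows. For Cyp2c39 it lay before the other listed start and not the one whose bases are shown. TGATAA, a form of the GATA element, lay upstream of 5 members (Cyp2c29, Cyp2c37, Cyp2c38, Cyp2c40 and Cyp2c50) and in 7.94% of all windows; AGATAA, another form, lay upstream of Cyp2c29, Cyp2c39 and Cyp2c55 and in 9.99%. Upstream of the members, the matches of either form lay apart from those of CAAAGTCNA. A match describes the sequence and not binding.

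Taken as a family, 8 members had lower mean values in knockout livers and 1, Cyp2c44, had a higher one. The median difference of the 9 was -0.74 on the log2 scale, beside -0.013 for all rows. By the threshold used for all rows, 4 members were lower (Cyp2c29, Cyp2c37, Cyp2c50 and Cyp2c54) and 0 higher, beside the 4.05% and 3.28% of rows given above; the members were selected on this contrast, so nothing is read from that count. The number of lower members moved from 4 to 3 or 5 when single livers were left out. Cyp2c54 missed the threshold without control replicate 9 or without knockout replicate 1, 3, 4, 7, 8 or 10, and Cyp2c38 reached it without control replicate 1 or knockout replicate 2. Cyp2c40 reached it without knockout replicate 5, and Cyp2c44 reached it as higher without knockout replicate 6. Several members are closely related genes, and the sources used here do not say which probes could read more than 1 of them. The split of signal among them is therefore uncertain.

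**Figure D1:**
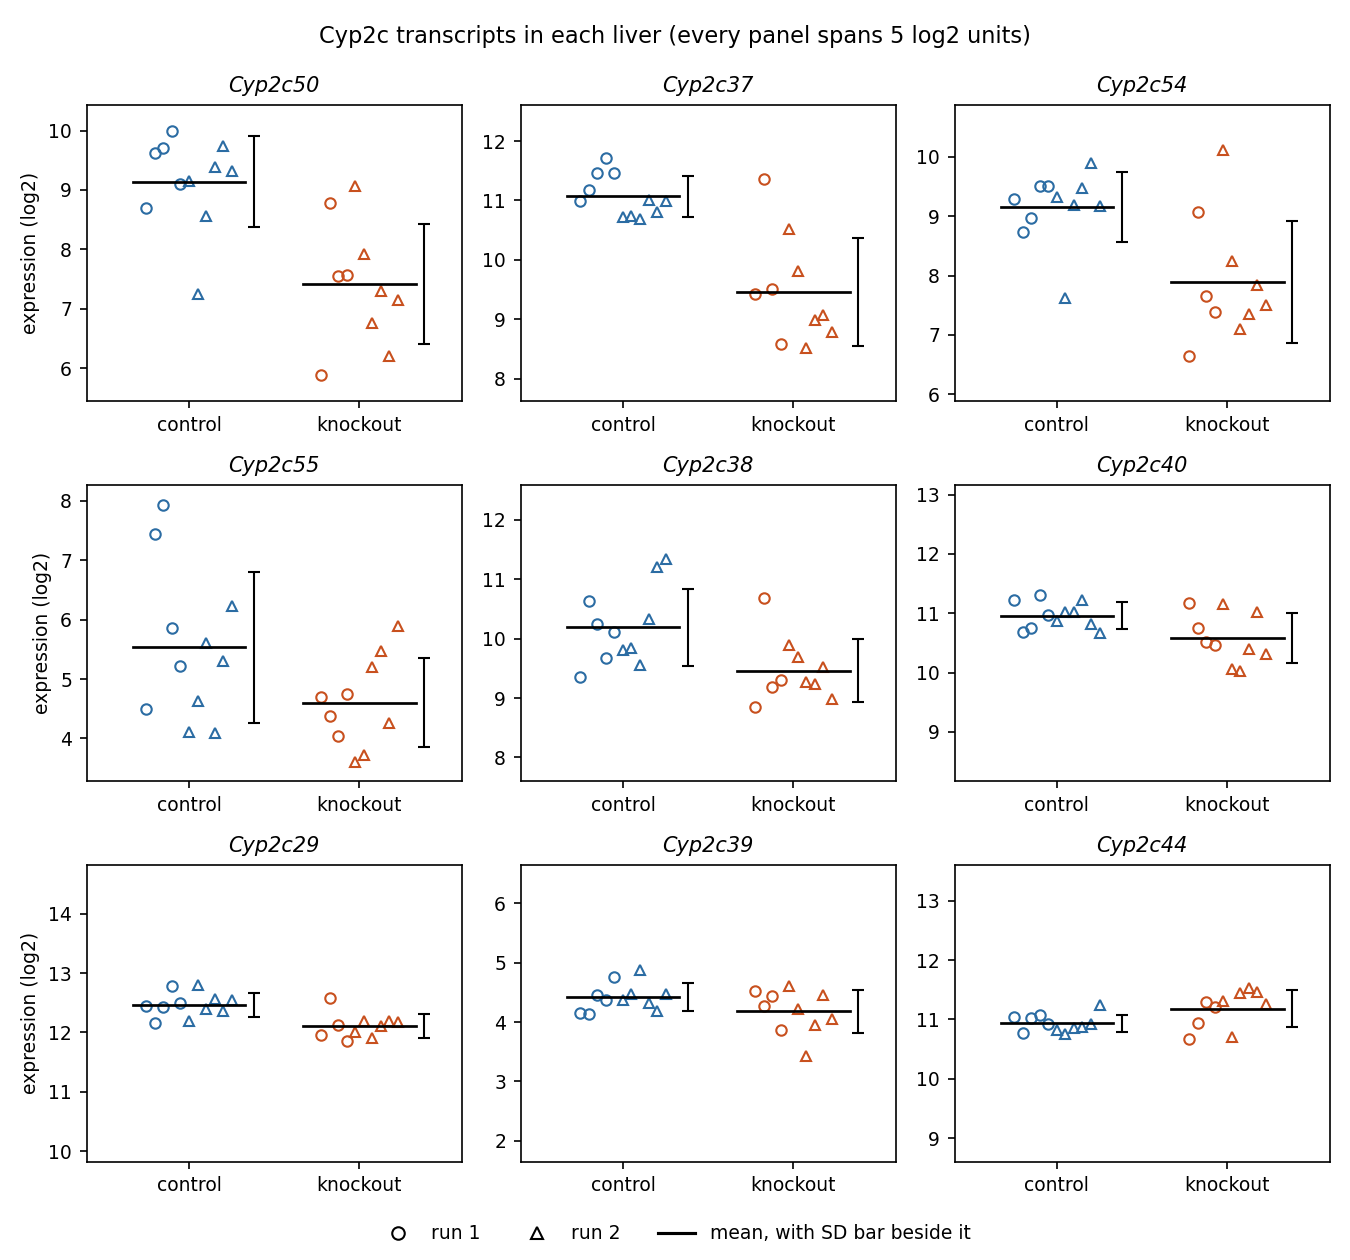
Log2 expression of each Cyp2c member in every liver, control (blue) and knockout (orange), with circles for run 1 and triangles for run 2; lines are group means and the bar beside them is the SD (n = 11 and n = 10). The points of both groups overlap in all 9 panels, and the knockout livers of Cyp2c50, Cyp2c37 and Cyp2c54 spread more widely than those of Cyp2c29.

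Cyp2c37, Cyp2c50 and Cyp2c54 form a block of neighbouring genes whose products oxidise arachidonic and linoleic acid, and they showed the largest differences of the family. Cyp2c50 ranged from 7.24 to 9.996 in control livers, with a median of 9.32, and from 5.88 to 9.06 in knockout livers, with a median of 7.43. Its mean was 1.70 ± 0.37 (SE) lower on the log2 scale, which is 3.25-fold, and 6 rows of the table had a larger fall. The ranges overlapped because control replicate 7 was low (7.24) and knockout replicates 5 and 2 were high (9.06 and 8.78).

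Cyp2c37, which is inducible through CAR, had a range of 10.69 to 11.71 and a median of 10.99 in control livers. In knockout livers the range was 8.52 to 11.36 and the median 9.25. The difference was -1.58 ± 0.26 (log2, SE). Of the knockout livers, 9 of 10 lay below the lowest control, and the exception was replicate 2 at 11.36, inside the control range.

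Cyp2c54 ranged from 7.62 to 9.90 in control livers (median 9.30) and from 6.65 to 10.11 in knockout livers (median 7.58). The difference was -1.27 ± 0.34 (log2, SE). Knockout replicate 5 held the highest value of all 21 livers, 10.11, while 5 of 10 knockout livers were below the lowest control, which was again replicate 7. Knockout replicate 2 thus had values inside the control range in each gene of the block. Knockout replicate 5 was as high in Cyp2c50 and Cyp2c54, but its Cyp2c37 value of 10.51 was below the lowest control. Control replicate 7 was low in Cyp2c50 and Cyp2c54 but not in Cyp2c37 (10.74).

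Cyp2c29, an abundant hepatic form that also epoxidises arachidonic acid, had the smallest spread among the lower members. It ranged from 12.17 to 12.80 in controls (median 12.44) and from 11.85 to 12.58 in knockout livers (median 12.11), a difference of -0.36 ± 0.09 (log2, SE) or 1.28-fold. Knockout replicate 2 was the highest of its group, and 6 of 10 knockout livers were below every control.

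Cyp2c39 and Cyp2c38 lie next to Cyp2c29 in the cluster. Cyp2c38, another arachidonic acid epoxygenase, ranged from 9.35 to 11.34 in controls (median 10.11) and from 8.84 to 10.68 in knockout livers (median 9.29), a difference of -0.74 ± 0.25 (log2, SE). Control replicates 10 and 11 were the highest, and 6 of 10 knockout livers were below the lowest control. Cyp2c39, a retinoic acid hydroxylase, was close to the middle of the array's values, at 4.13 to 4.88 in controls (median 4.38) and 3.42 to 4.61 in knockout livers (median 4.25). Its difference of -0.23 ± 0.13 (log2, SE) left most livers of both groups overlapping, and 6 of 10 knockout livers were below the control mean of their run.

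Cyp2c40, which makes hydroxy acids from arachidonic acid, ranged from 10.66 to 11.31 in controls (median 10.97) and from 10.02 to 11.17 in knockout livers (median 10.49). The difference was -0.37 ± 0.14 (log2, SE), with 6 of 10 knockout livers below the lowest control and the rest within the control range. Cyp2c55, a form known from the intestine, varied most among controls, from 4.09 to 7.94 (median 5.30), and ranged from 3.61 to 5.89 in knockout livers (median 4.54). Control replicates 2 and 3, both of run 1, held its highest values, and the difference of -0.91 ± 0.43 (log2, SE) was -1.73 in run 1 and -0.30 in run 2.

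Cyp2c44, an epoxygenase gene on the same chromosome with 61 measured genes between it and the cluster, was the member with higher values in knockout livers. It ranged from 10.75 to 11.24 in controls (median 10.91) and from 10.67 to 11.54 in knockout livers (median 11.28). The difference was 0.24 ± 0.10 (log2, SE), or 1.18-fold, and 0.06 in run 1 against 0.38 in run 2. In 6 of 10 knockout livers it lay above the highest control, and in 2 of 10 below the lowest.

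In the order of the RefSeq annotation the cluster runs from Cyp2c55 to Cyp2c70, and the size of the difference changed from gene to gene along it. The 7 Cyp2c genes outside the 9 members were Cyp2c65, Cyp2c66, Cyp2c67, Cyp2c68, Cyp2c69, Cyp2c70 and the pseudogene Cyp2c53-ps, and none passed the test (limma; Cyp2c68 had an unadjusted p of 0.042 and an adjusted p of 0.20). Their differences lay between -0.48 ± 0.25 (log2, SE) for Cyp2c69 and 0.06 ± 0.05 for Cyp2c66. Cyp2c70, the bile acid hydroxylase gene next to Cyp2c50, had a difference of -0.06 ± 0.04 (adjusted p = 0.47), with controls from 12.55 to 12.71 and knockout livers from 12.38 to 12.69. The nearest measured genes outside the cluster, Hells on the side of Cyp2c55 and Pdlim1 on the side of Cyp2c70, had differences of 0.15 ± 0.09 (adjusted p = 0.35) and 0.33 ± 0.13 (adjusted p = 0.12). The largest differences were thus in 3 adjacent genes, and the genes on both sides of those, Cyp2c69 and Cyp2c70, did not pass. Whether the 3 genes differed from these neighbours was not tested, since the members were selected on this contrast.

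**Figure D2:**
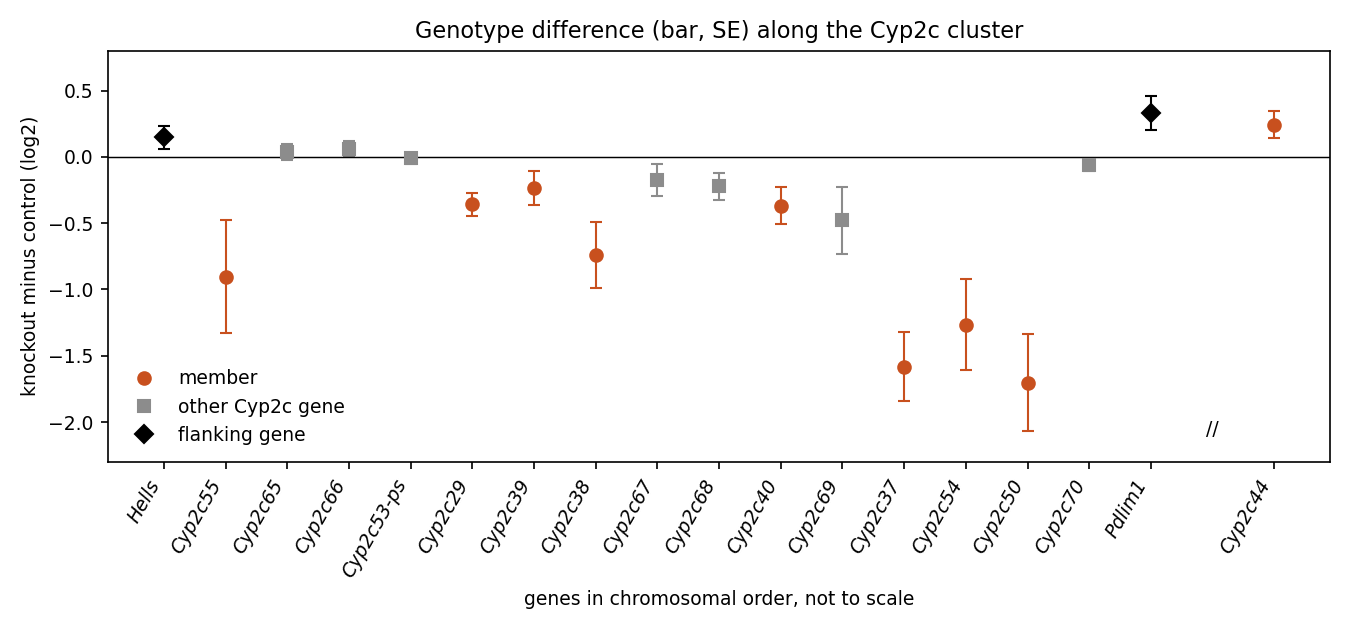
Genotype difference (log2, knockout minus control) and its SE, for the Cyp2c genes and the measured genes that flank them, in chromosomal order and not to scale; 61 measured genes are left out at the break. Cyp2c37, Cyp2c54 and Cyp2c50 hold the 3 lowest values, side by side, with Cyp2c70 near 0.

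The run contrast did not enter the choice of members and could be tested. Of all rows, 4.11% differed between runs, and 0 of the 9 members did (limma, adjusted p under 0.05). At an unadjusted p under 0.05 these were 16.7% of rows and 0 of the 9 members. Cyp2c55 was lower in run 2 by 0.53 ± 0.43 (SE; adjusted p = 0.61) and Cyp2c37 by 0.49 ± 0.26 (adjusted p = 0.37), the widest run differences of the 9. The genotype difference itself differed between runs in 0.0315% of rows and in 0 of the 9 members (limma, adjusted p under 0.05). At an unadjusted p under 0.05 it differed in 10.2% of rows and in 0 of the 9 members. For Cyp2c55 that difference between runs was 1.43 ± 0.82 (log2, SE; adjusted p = 0.58), and for Cyp2c37 it was 0.10 ± 0.54 (adjusted p = 0.97). Within the runs, Cyp2c50 was -1.98 and -1.50, Cyp2c37 was -1.64 and -1.54, Cyp2c54 was -1.51 and -1.09 and Cyp2c29 was -0.33 and -0.38, in run 1 and run 2. Each of the 9 differences had the same direction in both runs, but the members were selected on this contrast, so nothing is read from that. Some were small in 1 run, such as Cyp2c39 at -0.10 in run 1 and Cyp2c55 at -0.30 in run 2. Counts of 0 among 9 genes do not show that the members were alike in both runs.

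To see how members vary together once the contrast that chose them is removed, values were centred on the mean of each genotype in each run. Of the 36 pairs of members, 23 had a Pearson r above 0 and 8 above 0.5, with a median of 0.12; all pairs share the same 21 arrays. Cyp2c50 and Cyp2c54 varied most alike (r = 0.84, rho = 0.75, r = 0.76 without the 2 farthest livers), in controls (r = 0.76) as in knockout livers (r = 0.88). Cyp2c37 followed Cyp2c54 (r = 0.74, rho = 0.73), but r was 0.45 without the 2 farthest livers and 0.25 in controls against 0.86 in knockout livers, so the relation rests mostly on knockout livers. Cyp2c38 varied with Cyp2c50 (r = 0.64, rho = 0.65, and r = 0.58 without the 2 farthest livers). Over all livers Cyp2c44 had no r above 0.22 with any other member. In controls alone its r was 0.43 with Cyp2c37, 0.39 with Cyp2c54, 0.39 with Cyp2c50 and 0.35 with Cyp2c38. In knockout livers these were -0.37, -0.09, -0.04 and -0.14. Cyp2c55 was opposed to Cyp2c40 (r = -0.48, rho = -0.52, and -0.40 without the 2 farthest livers). With Cyp2c38 its r was 0.58 in controls and -0.50 in knockout livers.

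Likeness of the upstream windows did not order the pairs in the same way. Cyp2c37 and Cyp2c50 had the most similar windows, with 85.6% of 250 bases identical in a global alignment, and an r of 0.63. Cyp2c38 and Cyp2c39 came next at 79.2%, with an r of -0.04. Cyp2c38 and Cyp2c50 shared 66.8% and had an r of 0.64. These are descriptions over 21 pairs of 7 genes, and pairs that share a gene are not independent.

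**Figure D3:**
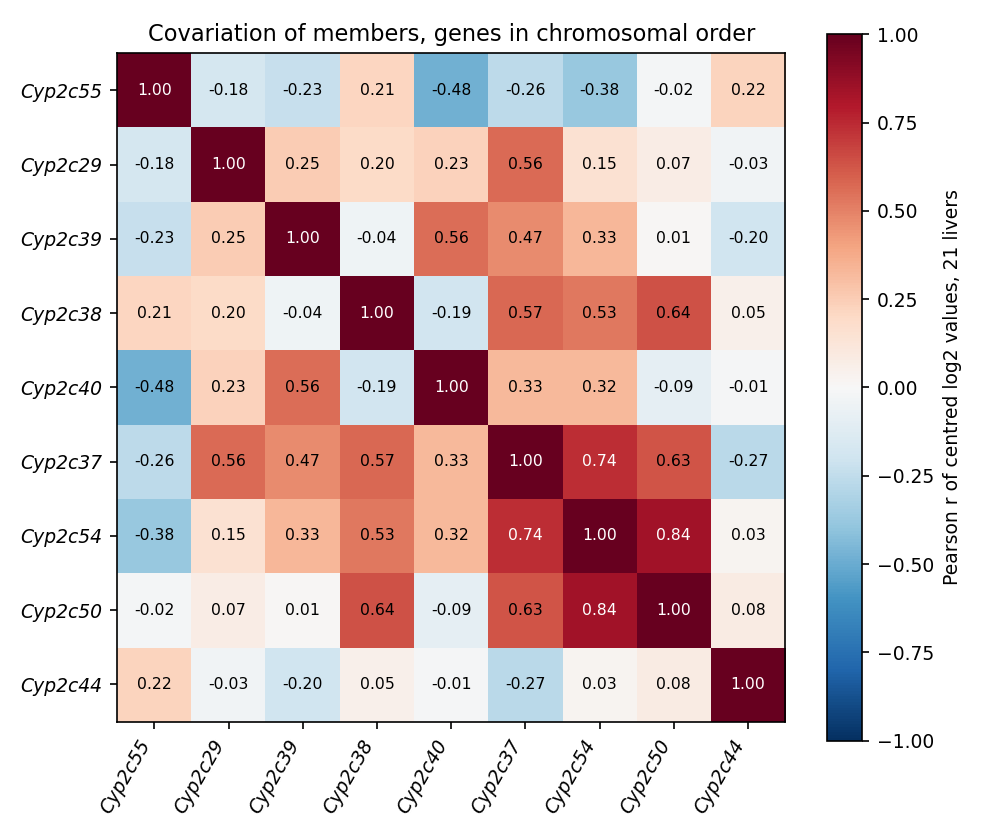
Pearson r between members over 21 livers after each genotype in each run was centred on 0, with genes in chromosomal order on both axes and red for positive values. The block of Cyp2c37, Cyp2c54 and Cyp2c50 has values of 0.63 to 0.84, joined by Cyp2c38 at 0.53 to 0.64. Cyp2c44 and Cyp2c55 have no value above 0.22 with another member when both groups are pooled.

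Among the 24689 genes outside the family that had a symbol, the one most like the mean of the 9 centred members was Nr1i3. It encodes the xenobiotic receptor CAR and was picked as the highest r of that search. Its r with the member mean was 0.88 over 21 livers (rho = 0.85, and 0.78 without the 2 farthest livers), 0.78 in the 11 controls and 0.93 in the 10 knockout livers. Nr1i3 ranged from 8.88 to 9.62 in controls (median 9.29) and from 8.08 to 9.50 in knockout livers (median 8.49). The 2 highest knockout livers for Nr1i3 were replicate 2 (9.50) and replicate 5 (9.27), the same that had control-like levels of Cyp2c50 and Cyp2c54. Since Nr1i3 was picked for varying with the members, nothing more is read from this match. By member, r with Nr1i3 was 0.85 for Cyp2c37 (rho = 0.77, and 0.73 without the 2 farthest livers), 0.77 for Cyp2c38 (rho = 0.77, and 0.73), 0.76 for Cyp2c54 (rho = 0.64, and 0.68) and 0.71 for Cyp2c50 (rho = 0.71, and 0.66). In controls alone r was 0.64 for Cyp2c37, 0.71 for Cyp2c38 and 0.68 for Cyp2c50 but 0.33 for Cyp2c54, and in knockout livers it was 0.74 to 0.91 for these 4. It was 0.45 for Cyp2c29, which came to 0.14 without the 2 farthest livers and was 0.73 in knockout livers and near 0 in controls. For the rest it was 0.37 for Cyp2c39, 0.24 for Cyp2c40, -0.04 for Cyp2c44 and -0.10 for Cyp2c55. These values pool groups of opposite sign. In controls and in knockout livers r was -0.08 and 0.54 for Cyp2c39 and -0.27 and 0.40 for Cyp2c40. It was 0.28 and -0.14 for Cyp2c44 and 0.46 and -0.60 for Cyp2c55. Whether r differed between the groups was not tested. The next most alike were Rmdn2, a microtubule-associated protein gene (r = 0.81), Aldh1a1, a retinal dehydrogenase gene (r = 0.81), Acadl, an acyl-CoA dehydrogenase gene (r = 0.80), Hacd3 (r = 0.78), Mir1961 (r = 0.78), the haem-regulated kinase gene Eif2ak1 (r = 0.77) and the pantothenate kinase gene Pank1 (r = 0.77). Without the 2 farthest livers r was 0.79 for Aldh1a1, 0.73 for Acadl and 0.59 to 0.65 for the rest. Mir1961 lay below the lower quartile of the arrays (2.98), with means of 2.40 in controls and 2.38 in knockout livers. The member mean weighs the members with the widest spread most.

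Hnf4a, named here outside the rule for its element upstream of the members, varied in the opposite direction to some members. Its r was -0.79 with Cyp2c54 (rho = -0.68, and -0.64 without the 2 farthest livers) and -0.74 with Cyp2c50 (rho = -0.66, and -0.56), and -0.72 with the member mean. It was -0.60 with Cyp2c38 and -0.43 with Cyp2c37. The other members with the whole element were nearer 0, at -0.01 for Cyp2c29, -0.11 for Cyp2c39 and -0.19 for Cyp2c40. In controls and knockout livers apart, r was 0.19 and -0.26 for Cyp2c29, 0.35 and -0.49 for Cyp2c39 and 0.05 and -0.39 for Cyp2c40. Cyp2c44 was at -0.26 over all livers (-0.57 in controls and -0.08 in knockout livers), and Cyp2c55 at 0.10 (-0.25 and 0.79). Hnf4a had a narrow range of 11.04 to 11.51 in controls and 11.15 to 11.65 in knockout livers, and its genotype difference of 0.13 ± 0.05 (log2, SE) did not pass the test (adjusted p = 0.11, limma).

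**Figure D4:**
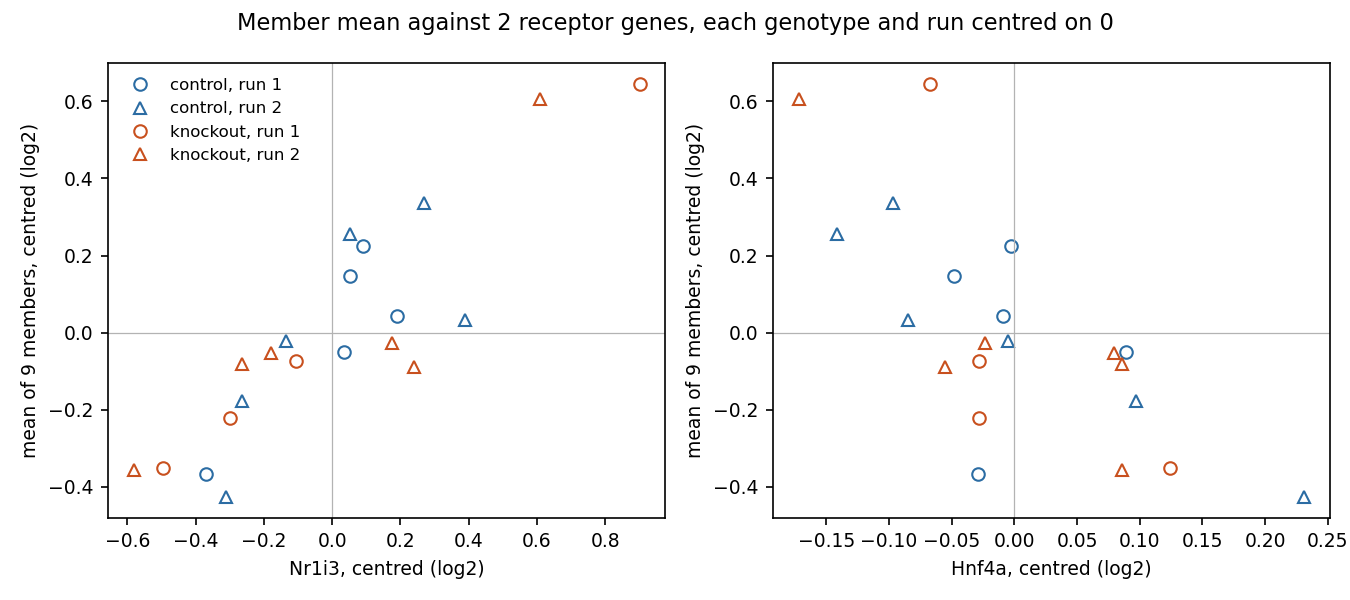
Mean of the 9 centred members (vertical, log2) against centred Nr1i3 (left) and centred Hnf4a (right) in each liver, blue for control and orange for knockout, circles for run 1 and triangles for run 2. Knockout replicates 2 and 5 are the 2 points at the upper right for Nr1i3, and the horizontal scale is narrower for Hnf4a.

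Cyp2c55 was the only member ranked by itself against other genes, so whether the others would rank alike is not known here. Ranked after its values were seen, the gene with the highest r to Cyp2c55 among 24689 was Nfe2l2, which encodes the oxidative stress factor NRF2 (r = 0.81, rho = 0.80, and 0.72 without the 2 farthest livers; 0.92 in controls and 0.68 in knockout livers). Cyp2b10, a classic target of CAR, had an r of -0.14 with Cyp2c55, which turned to 0.13 without the 2 farthest livers. In controls of run 1 Cyp2b10 lay between 5.16 and 9.08, and in no other liver was it above 5.48. Its genotype difference was -3.63 among run 1 livers and 0.33 among run 2 livers; the change between runs of 3.96 ± 0.81 (log2, SE) did not pass (adjusted p = 0.095, limma).

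Among the genes that serve or control P450 enzymes, the lists below were described by their counts past the threshold over all rows (limma). All list counts stand beside 4.05% of rows lower and 3.28% higher. Of 12 xenobiotic receptors and partners, 2 fell and 1 rose: Nr1i3 by 0.61 ± 0.16 (SE; adjusted p = 0.024) and the bile acid receptor gene Nr1h4 by 0.39 ± 0.07 (adjusted p = 0.0026). Rxra, the partner receptor, rose by 0.14 ± 0.04 (adjusted p = 0.046), but missed the threshold in 17 of the 21 fits that left out 1 liver (highest adjusted p = 0.084). Nr1i2 had a difference of 0.30 ± 0.11 and did not pass (adjusted p = 0.094). Of 18 targets of CAR and PXR, 3 fell and 0 rose, with a median of -0.28: the carboxylesterase gene Ces2a by 0.54 ± 0.12, the canalicular transporter gene Abcc2 by 0.29 ± 0.07 and Aldh1a1 by 0.63 ± 0.17. The call of Aldh1a1 was lost without knockout replicate 3 (adjusted p = 0.053).

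Electron supply and haem synthesis changed in part. Of 11 genes measured, 4 fell and 1 rose, with a median of -0.19. Alas1, the rate-limiting enzyme of haem synthesis, rose by 0.92 ± 0.17 (SE, adjusted p = 0.0032), and all 10 knockout livers exceeded the mean of the controls in their run. Cpox, a later enzyme of the same pathway, fell by 0.71 ± 0.15 (adjusted p = 0.0073), and Pgrmc1, a P450-binding haem protein, fell by 0.25 ± 0.05 (adjusted p = 0.0055). Ppox and Cyb5b, a haem synthesis enzyme gene and a gene of the cytochrome b5 family of electron donors, fell by 0.40 ± 0.10 and 0.43 ± 0.10; Cyb5b did not pass without the run term (adjusted p = 0.098).

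Of 34 other Cyp2 genes, 4 fell and 0 rose, with a median of -0.08. These were Cyp2j9 (-0.36 ± 0.08, SE), Cyp2d10 (-0.31 ± 0.08), Cyp2j5 (-0.18 ± 0.05) and Cyp2a22 (-0.86 ± 0.24), and the call of Cyp2j5 was lost without knockout replicate 4 (adjusted p = 0.052). Cyp2a22 missed the threshold in 7 of the 21 fits that left out 1 liver (highest adjusted p = 0.061). Of 23 genes of arachidonic acid metabolism, which include Cyp2j5 and Cyp2j9, 4 fell and 1 rose. The fatty acid hydroxylase gene Cyp4a14 was 8.03-fold lower (adjusted p = 0.013), while Ephx2, whose product hydrolyses the epoxides, had a difference of -0.28 and did not pass (adjusted p = 0.095).

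Few hepatocyte regulators and sex-dependent genes passed the threshold. Beside the 4.05% of all rows lower and 3.28% higher, counts this small are not read as a result about these lists. Of 13 hepatocyte transcription factor genes, Nr5a2 fell by 0.38 ± 0.07 (SE; adjusted p = 0.0023) and Foxa3 rose by 0.41 ± 0.08 (adjusted p = 0.0045). Of 14 genes that are higher in female liver, 2 fell, Sult2a1 by 0.85 ± 0.22 and Cyp3a44 by 1.07 ± 0.30, and Cyp3a44 missed the threshold in 8 of the 21 fits that left out 1 liver (highest adjusted p = 0.067). Of 14 genes that are higher in male liver, C6, a complement gene, rose by 1.86 ± 0.29 and 0 fell.

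Markers of liver cell types moved beside the Cyp2c values, and their part in the Cyp2c differences was not tested. List scores are means over a list of each liver's log2 value minus the control mean. Of 14 general hepatocyte markers, 1 fell (Apoa2) and 1 rose (Hpx), and scores were -0.07 to 0.05 in controls and -0.07 to 0.07 in knockout livers. Of 14 pericentral markers, 4 fell and 0 rose, among them Cyp1a2 by 0.81 ± 0.15 (SE), Cyp27a1 by 0.38 ± 0.08 and the glutamine synthetase gene Glul by 0.69 ± 0.16, with scores of -0.23 to 0.33 in controls and -0.74 to 0.22 in knockout livers. Of 13 periportal markers, 1 fell (G6pc), with scores of -0.33 to 0.25 and -0.30 to 0.41. Of 15 acute phase genes, 4 rose, with Lcn2 at the lowest adjusted p of them (1.94 ± 0.39), and with scores of -0.43 to 1.19 and 0.00 to 1.99.

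Among non-parenchymal markers, 10 of 15 sinusoidal endothelial genes fell, with scores of -0.52 to 0.39 in controls and -0.97 to -0.24 in knockout livers. Of 11 continuous endothelial genes, 8 rose and 2 fell, with scores of -0.36 to 0.16 and 0.34 to 1.004. Genes that rose numbered 8 of 13 for stellate cells and fibroblasts (scores of -0.46 to 0.60 and 0.24 to 0.82), 6 of 12 for Kupffer cells (-0.99 to 1.09 and 0.40 to 1.32) and 7 of 9 for B and plasma cells (-0.74 to 1.07 and 0.82 to 2.66). They numbered 3 of 10 for monocytes (-0.20 to 0.77 and 0.22 to 1.52), 3 of 10 for T and NK cells (-0.07 to 0.11 and -0.04 to 0.37) and 1 of 10 for neutrophils, Ngp (-0.11 to 0.14 and 0.17 to 5.48). Of 7 bile duct markers 0 passed; the lowest adjusted p was that of Sox9 (0.060), which passed without control replicate 1, 4 or 6 or knockout replicate 5 or 6 (lowest adjusted p = 0.038) and without genes under the median mean, and scores were -0.22 to 0.20 and -0.04 to 0.55. None of these lists holds a Cyp2c gene.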

How the data were processed

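Labels call the samples biological replicates, so each array was taken as 1 animal. The deposited values are log2, and the submitters' processing notes name RMA for what the authors did; the sources used here do not give its version, the array type or the build. RMA quantile-normalises arrays, so a global shift would be hidden. The 9 members, all gene lists and the tests were chosen with earlier results of these data known. Symbols came from the platform annotation (24705 of 25428 rows had 1, 723 had none).

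All rows were fitted by limma 3.58.1 (lmFit, eBayes; R 4.3.3), with genotype and run as terms, and a second fit added their product. Benjamini-Hochberg adjustment covered all rows, with 0.05 as the threshold. Differences are knockout minus control. Named genes were the Cyp2c genes, Gata4, Clec4g, up to 3 genes per list with the lowest adjusted p past 0.05 (else the 1 with the lowest p), the 8 most alike by centred correlation and the flanking genes. Cyp2a22, Cyb5b, Ppox, Nr1i2, Ephx2, Hnf4a, Cyp2b10, Nfe2l2, Xist, Eif2s3y and Kdm5d were added after their values were seen. Clec4g fell by 0.92 ± 0.23 (SE; adjusted p = 0.018). Of 300 listed symbols outside the family, 281 were measured. "Farthest livers" are the 2 farthest from the median of 1 of the 2 measures compared. For pairs of members this was the lower-numbered gene. For genes ranked by likeness to the member mean it was that mean. For single members against Nr1i3 or Hnf4a it was the receptor gene.

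Upstream sequences came from RefSeq, GRCm38.p6; the table covers 250 bases before and 50 after each start, and the 50 were not used. Windows were aligned globally with Biopython 1.88, with free end gaps. RefSeq gene order was used without coordinates. On simulated data with the real means and spreads, 81% of 100 genes changed by 0.5 and 98% of 100 changed by 1 were recovered, with 19 false calls among 25128 unchanged genes, and 94% of 100 genotype by run differences of 2 were recovered. The changed genes were drawn at random from all rows, so these shares do not apply to members with a wider spread. For Cyp2c55 and Cyp2c50 the SE of the genotype by run difference was 0.82 and 0.75. Alternatives covered the run term, each run alone, the replicate block, centring, a second quantile normalization, a filter on dim genes, a trended robust prior, array weights and each liver left out. An alternative without the 2 livers least like their group, control replicates 3 and 4, was added after seeing the data. Figures were drawn with matplotlib 3.10.9.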

Additional observations from a re-analysis of the deposited data

Results flagged for a closer look

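Cyp2c29 in knockout livers had 1 liver far from the others. Replicate 2 (12.58) was highest, and its gap to the next liver was 0.52 of the group's range, above Dixon's critical value for 10 livers. Such a gap arises by chance in about 1 in 20 groups, and 15 Cyp2c genes were examined; the 11 controls were not. The same liver was the highest knockout for Cyp2c37 (11.36) and Cyp2c38 (10.68), with gaps of 0.30 and 0.43 of the range, below the critical value. Without it the log2 difference of Cyp2c29 was -0.42 in place of -0.36, and that of Cyp2c37 was -1.79 in place of -1.58.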

How the results depend on the processing

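The number of lower members was 4 and became 0 in run 1 alone and 2 in run 2 alone (Cyp2c29 and Cyp2c37), fits with 9 and 12 livers. Leaving out single livers gave 3 to 5 lower members and 0 to 1 higher members, the latter without knockout replicate 6 (Cyp2c44). Cyp2c29, Cyp2c37 and Cyp2c50 were past the threshold in each of those fits. Cyp2c54 was lost with array weights and without the 2 livers least like their group, which left 3 lower members. Cyp2c38 was gained with the filter on dim genes, which gave 5. Of the other listed genes, 36 were lower and 46 higher; these were 0 and 0 in run 1 alone, and 22 were lower in run 2 alone. Without single livers they ranged from 30 to 42 lower and from 38 to 51 higher. With the replicate number as a replicate block beside run, 4 members were lower, with Cyp2c40 in place of Cyp2c29, and 30 listed genes were lower and 38 higher; same-numbered livers did not deviate together (correlations from -0.05 to 0.17 over 10 numbers), so the numbers were not taken as pairs. The counts of members past the threshold for run and for genotype by run stayed at 0 in the alternatives run, and the median correlation among members ranged from 0.08 to 0.20 without single livers. No member changed direction in the 31 alternatives; Cyp2c55 moved most, from -1.73 to -0.30, and Cyp2c44 from 0.06 to 0.38. The call of Nr1i3 was lost in each run alone (adjusted p = 0.36 and 0.091) and that of Clec4g without the run term (adjusted p = 0.053). Calls with adjusted p near the threshold were lost without single livers for Cd3e (4 livers) and Trac (11 livers). The cause of these changes was not tested. Fits of each run alone held fewer livers, and some calls were also lost in fits of all livers. Signal over background could not be weighed, which limits Cyp2c39, Cyp2c55 and the Cyp2c genes near 2.5.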
